A study of Mus musculus with 50 samples.

Results

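Highly accessible sites far from genes are open stretches of chromatin that lie more than 5 kb from the span of every protein-coding gene of GRCm38 and that hold more reads than most other peaks. They were chosen by position and by mean CPM (the reads in a site as a share of all reads in peaks of that library, scaled to 1e6), a site having to be in the top 5% of all peaks over the 50 libraries. This rule found 408 of 144465 peaks, against 6815 equally accessible peaks in or near a gene and 44949 less accessible peaks far from genes. The libraries were made by ATAC-seq, in which a transposase inserts adapters where DNA is not wrapped tightly, from sorted NeuN+ (neuronal) nuclei of ventral hippocampus, dissected from 1 brain side only. All mice were test-naive male C57BL/6JRj mice (Janvier Labs), born and raised in 1 of 5 rearing facilities (RF1 to RF5), with 5 libraries per RF at each of 2 time points (TPs). At TP1 mice aged 8 weeks were taken while still in their RF, and at TP2 mice aged 14 weeks, after they had been moved to a test laboratory new to all of them. The label "hexane (freezing condition)" was shared by all samples. RF here stands for the whole environment of a facility, and TP2 differed from TP1 in age, in housing and in the batch in which libraries were amplified and sequenced, so these cannot be told apart. The comparisons ask how accessibility of these sites differed between RFs, and whether it did so in the same way at both TPs.

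Open chromatin away from protein-coding genes is of several kinds. Enhancers are bound by transcription factors and act on promoters at a distance, lncRNA and miRNA host genes have promoters of their own, and tRNA genes carry promoters inside the gene that RNA polymerase III reads. Ribosomal RNA genes and other repeats are present in many copies, of which a reference genome shows few. In neurons, long non-coding RNAs and miRNAs such as miR-9, miR-124 and miR-137 are known for their part in neuronal fate and function.

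The sites overlapped non-coding genes, and their starts, more often than the other sets of peaks did. Of the 408 sites, 200 (49%) overlapped a lncRNA gene, against 16% of the equally accessible peaks in or near protein-coding genes and 19.8% of the less accessible distal peaks. A start of a non-coding gene lay in 87 sites (21.3%, against 10.4% and 2.54%), a tRNA gene in 30 (7.35%, against 0.675% and 0.151%) and a miRNA gene in 9 (2.21%, against 0.895% and 0.118%). No annotated gene of any kind overlapped the remaining 181 sites. The rule itself keeps protein-coding genes out of the sites, so these shares are a description of what is left.

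**Figure D1:**
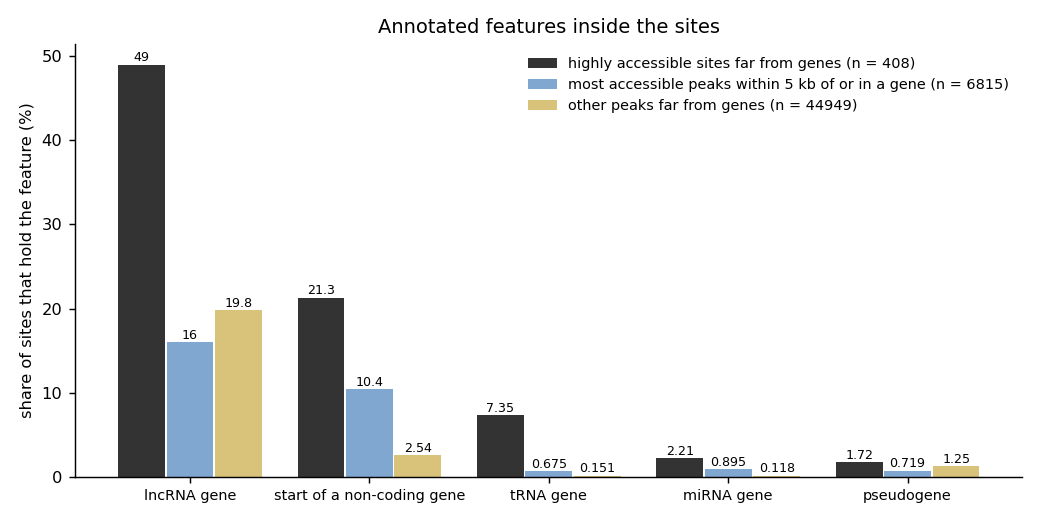
Share of sites (percent, y axis) that overlap a lncRNA gene, a start of a non-coding gene, a tRNA gene, a miRNA gene or a pseudogene, in 3 sets of peaks shown as bars. lncRNA genes lie in 49% of the highly accessible distal sites, 16% of the equally accessible peaks in or near protein-coding genes and 19.8% of other distal peaks.

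Some of the miRNAs described below are shown by their mature sequence (RefSeq, GRCm38.p6), in lower case with the seed, bases 2 to 8, in capitals. Let-7b and let-7i share a seed, miR-9 is made from 2 of the sites, and miR-137 and miR-760 have seeds of their own.
mmu-let-7b-5p: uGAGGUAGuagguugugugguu
mmu-let-7i-5p: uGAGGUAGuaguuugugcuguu
mmu-miR-9-5p: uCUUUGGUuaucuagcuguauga
mmu-miR-137-3p: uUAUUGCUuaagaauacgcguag
mmu-miR-760-3p: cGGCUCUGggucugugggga

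RefSeq promoters, from 250 bases before to 50 bases after a start, were found for 96 starts of 89 non-coding genes in the sites. Their median GC content was 56.5%, against 48.3% for the 11492 other starts of non-coding genes. The Sp/Klf motif GGGCGG, read on both strands, was in 53.1% of them, against 16% of the other non-coding starts and 35.7% of all 32851 promoters. The cAMP response element TGACGTCA, which is bound by CREB, a factor that neuronal activity switches on, was in 4.17% (4 of 96), against 0.948% and 1.79%. CCAAT was as frequent in all 3 (36.5%, 36% and 37.4%), and TATAAA was in 9.38%, against 15.5% and 13.6%. These are matches of letters, not measured binding, and they were not compared with a test.

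The promoters that hold the cAMP response element are printed here with that of C130071C03Rik, a lncRNA gene in the neighbourhood of Mef2c whose start was among the most variable sites. Each runs 5′ to 3′ on the strand of its gene in GRCm38.p6, and capitals mark the cAMP response element, GGGCGG or CCAAT on either strand. Meg3 is an imprinted lncRNA at chr12:109540746-109541045 (+ strand), Mir9-3hg the host of a miR-9 gene at chr7:79499776-79500075 (+), Gm3764 a lncRNA beside Mir9-1 at chr3:88214232-88214531 (+) and Snhg15 a snoRNA host gene at chr11:6528711-6529010 (- strand). The C130071C03Rik promoter lies at chr13:83732243-83732542 (+).
Meg3: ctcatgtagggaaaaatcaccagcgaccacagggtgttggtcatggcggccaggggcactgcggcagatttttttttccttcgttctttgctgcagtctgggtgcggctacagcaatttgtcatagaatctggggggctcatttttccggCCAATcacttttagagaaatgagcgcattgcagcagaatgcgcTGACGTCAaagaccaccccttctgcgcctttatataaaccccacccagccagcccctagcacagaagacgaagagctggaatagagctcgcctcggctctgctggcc
Mir9-3hg: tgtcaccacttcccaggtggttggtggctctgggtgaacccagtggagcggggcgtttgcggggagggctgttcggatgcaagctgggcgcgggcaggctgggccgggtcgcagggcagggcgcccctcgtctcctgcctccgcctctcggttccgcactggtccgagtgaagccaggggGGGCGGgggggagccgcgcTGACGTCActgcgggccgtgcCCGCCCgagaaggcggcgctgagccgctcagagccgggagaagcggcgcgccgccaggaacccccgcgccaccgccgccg
Gm3764: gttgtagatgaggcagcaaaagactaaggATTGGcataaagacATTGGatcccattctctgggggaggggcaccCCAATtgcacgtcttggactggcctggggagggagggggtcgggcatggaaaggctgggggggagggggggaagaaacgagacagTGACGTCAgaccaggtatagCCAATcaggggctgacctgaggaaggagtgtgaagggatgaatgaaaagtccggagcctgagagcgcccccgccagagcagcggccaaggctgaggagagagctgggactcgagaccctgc
Snhg15: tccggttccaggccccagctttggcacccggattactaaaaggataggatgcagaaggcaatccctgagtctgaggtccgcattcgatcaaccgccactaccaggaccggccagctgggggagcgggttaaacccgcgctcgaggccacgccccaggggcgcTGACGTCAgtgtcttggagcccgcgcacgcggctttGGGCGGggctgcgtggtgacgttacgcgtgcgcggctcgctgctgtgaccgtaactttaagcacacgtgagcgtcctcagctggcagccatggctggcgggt
C130071C03Rik: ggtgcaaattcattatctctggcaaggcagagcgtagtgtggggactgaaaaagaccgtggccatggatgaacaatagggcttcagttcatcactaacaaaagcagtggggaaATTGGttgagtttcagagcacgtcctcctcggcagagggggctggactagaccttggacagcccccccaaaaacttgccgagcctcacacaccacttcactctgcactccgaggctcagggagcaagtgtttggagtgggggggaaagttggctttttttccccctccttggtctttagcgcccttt

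Mean accessibility of the sites ran from 23.6 to 3898 CPM with a median of 30.5, and 192 of them lay below 30 CPM. The second most accessible site had 151 CPM, so a single site stood far above the rest. On the CPM threshold, the sites near Sdhaf1 (23.7), Foxo1 (23.7) and Rps14 (23.6) were the last inside it, and peaks near Spry2, Ercc4 and Psd3 (each 23.6) the first outside. On the distance threshold, sites 5094 bp from Fam241b, 5145 bp from Was and 5172 bp from Mon2 were the last inside, and peaks 4963 bp from Tlcd2, 4977 bp from Snap25 and 4989 bp from Syt3 the first outside. Median width was 2413 bp (260 to 15793 bp), and because CPM is not per length, 257 of the 408 sites were also in the top 5% by CPM per kb. The median site lay 23.1 kb from its nearest protein-coding gene, 44 sites lay 100 to 500 kb and 5 more than 500 kb away, and the farthest was 1034.57 kb from Lrrc4c. All 408 sites were in the merged peaks of all 10 groups, and 394 had a called peak in each of the 50 libraries. The sites held 1.81% of all reads in peaks.

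Libraries were deep enough to put a median of 1116 reads in a site, with 33663505 to 77396321 reads in peaks per library at TP1 and 5111223 to 36401717 at TP2. Sorted nuclei read as neuronal: peaks at the starts of Rbfox3 (which encodes NeuN), Syt1, Slc17a7 and Neurod2 held 33.7, 35.8, 52.8 and 37.5 CPM, and Gad1 and Gad2 held 22.2 and 8.14. Those at Gfap, Gja1, Olig2 and Cldn5 held 3.59, 2.88, 1.88 and 1.40 CPM, P2ry12 held 7.01, and no peak lay at Mog, Pdgfra or Cx3cr1. Of 100 pairs of libraries of the same group, 20 differed by no more than sampling noise. Noise was set as 2 times the binomial variance of the counts, with a mean ratio of up to 1.02 taken as within it. Before values were averaged, libraries were joined into 1 sample only where every pair among them was within noise. This left 3 to 5 samples per group, although the methods describe 5 separate mice in each. The joining rests on the limit set here and does not show that any library was a repeat. At TP2 another 7 such pairs crossed groups: RF1 replicate 3 was within noise of RF2 replicates 1 to 4, and RF1 replicate 5, RF2 replicate 5 and RF5 replicate 3 were within noise of each other. Exchanged labels or a library sequenced more than once would give such pairs, which was not tested, and the TP2 values of RF1 and RF2 are to be read with that limit. TP2 differences that involve RF1 or RF2 are therefore also given without RF1 replicates 3 and 5 and RF2 replicate 5, called the 3 libraries below. These were picked from the same counts for their likeness to other groups, so leaving them out tends to narrow RF1 and RF2. Larger differences or added calls without them are therefore no independent support. RF5 replicate 3 was kept. ATAC-seq of pooled nuclei cannot tell fewer cells of a type from less accessibility in each cell.

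At TP1, accessibility depended on RF at 383 of the 408 sites (93.9%) by edgeR's quasi-likelihood test with Benjamini-Hochberg adjustment over all peaks (adjusted p below 0.01), where 59.1% of all tested peaks did. The share was 96.5% among equally accessible peaks in or near genes and 61.9% among other distal peaks. The latter had a median of 102 reads per library, and whether read number accounts for their share was not tested. Between at least 1 pair of RFs the difference also reached 0.5 on the log2 scale, which is what is called a differentially accessible region (DAR) here, at 154 sites (37.7%, with 38.6% of all peaks). The share of DARs was 43.3% among equally accessible peaks in or near genes and 50.1% among other distal peaks. At TP2, 316 sites (77.5%) depended on RF, against 30.8% of all peaks, and 79 (19.4%) were DARs, against 21%. Among the equally accessible peaks in or near genes these TP2 shares were 88.3% and 20.5%, and among other distal peaks 31.7% and 29.0%. These counts moved with the fit. After subtraction of region means over 1 Mb windows, 184 sites depended on RF at TP2 and 13 were DARs, all among the 79, and with libraries within sampling noise summed 199 depended on RF. At TP1 the fit with region means taken out gave 155 DARs, 108 of them among the 154. A loess offset, which removes differences shared by peaks of like accessibility, left 86 DARs at TP1, 80 of them among the 154, and 50 at TP2, 34 of them among the 79. Without the 3 libraries the TP2 counts were 382 and 101. With all libraries and no such correction, the share called RF-dependent was above that of all peaks. It was below that of the equally accessible peaks in or near genes. The share of DARs was close to that of all peaks. Both TPs showed RF-dependence at 302 sites, TP1 alone at 81, TP2 alone at 13 and neither at 12. The differences between RFs themselves changed from TP1 to TP2 at 389 sites (95.3%), by the interaction term of a joint edgeR fit, against 54.4% of all peaks. Among the equally accessible peaks in or near genes the share was 96.8%.

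**Figure D2:**
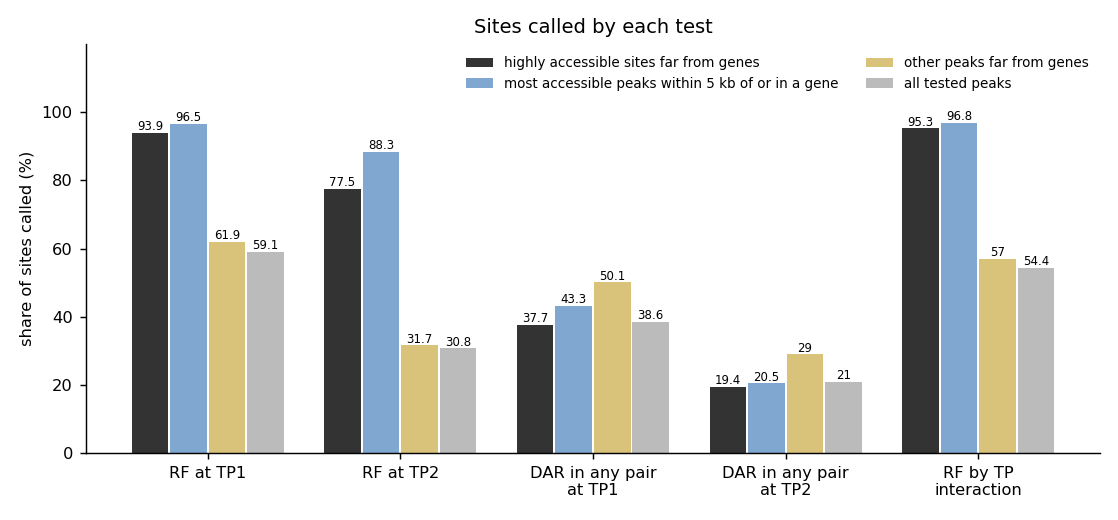
Percent of peaks called (y axis) for the RF test at each TP, DARs at each TP and the RF by TP interaction, as bars for highly accessible distal sites, equally accessible peaks in or near genes, other distal peaks and all tested peaks. The distal sites reach 93.9% for RF at TP1 and 77.5% at TP2, between all peaks and the equally accessible peaks near genes, whereas 37.7% and 19.4% are DARs.

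Each RF was next set against the mean of the other 4. At TP1, RF1 was higher at 64 sites (9.0% of all peaks were) and lower at 4 (5.96%), and RF4 was lower at 49 (1.88%) and higher at none (0.598%). RF5 was higher at 5 (2.28%) and lower at 4 (3.0%), and neither RF2 (0.168% higher and 0.072% lower among all peaks) nor RF3 (1.23% and 0.763%) had a call, in DESeq2 either. At an unadjusted p under 0.05, whatever the fold, RF2 was higher at 54 sites and lower at 53, RF3 higher at 191 and lower at 48, and RF4 higher at 1. The fitted difference of RF4 was below 0 at 393 of 408 sites, with a median of -0.26, and that of RF1 had a median of 0.18. Both shifts were shared by the equally accessible peaks in or near genes, with medians of -0.33 and 0.12. They also moved with the scaling: with the loess offset the medians became 0.03 for RF4 and 0.05 for RF1, and the counts 0 lower sites for RF4 and 41 higher for RF1. At TP2 the calls were fewer. RF3 was lower at 7 sites (0.888%) and higher at 1 (2.69%), RF4 lower at 7 (1.32%), RF5 lower at 2 (0.688%), and RF1 (1.14% higher and 1.22% lower among all peaks) and RF2 (0.126% and 0.0464%) had no call in edgeR or DESeq2. At an unadjusted p under 0.05 each was higher at 161 sites, and they were lower at 40 and 11. Without the 3 libraries RF1 was called higher at 9 sites and lower at 5, and RF2 higher at 3. Leaving out any 1 replicate number gave 0 to 6 higher and 0 to 1 lower sites for RF1 and 0 to 2 higher for RF2. RF4 and RF5 were called higher at no site at TP2 by edgeR or DESeq2 (0.541% and 0.217% of all peaks), with 101 and 144 sites at an unadjusted p under 0.05. The median for RF3 was -0.17 with 328 sites below 0, and 0.02 with the loess offset. With region means taken out, RF3 was lower at 3 sites and RF4 at none, with the loess offset RF3 was lower at 1, and with libraries within noise summed RF5 was lower at none.

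**Figure D3:**
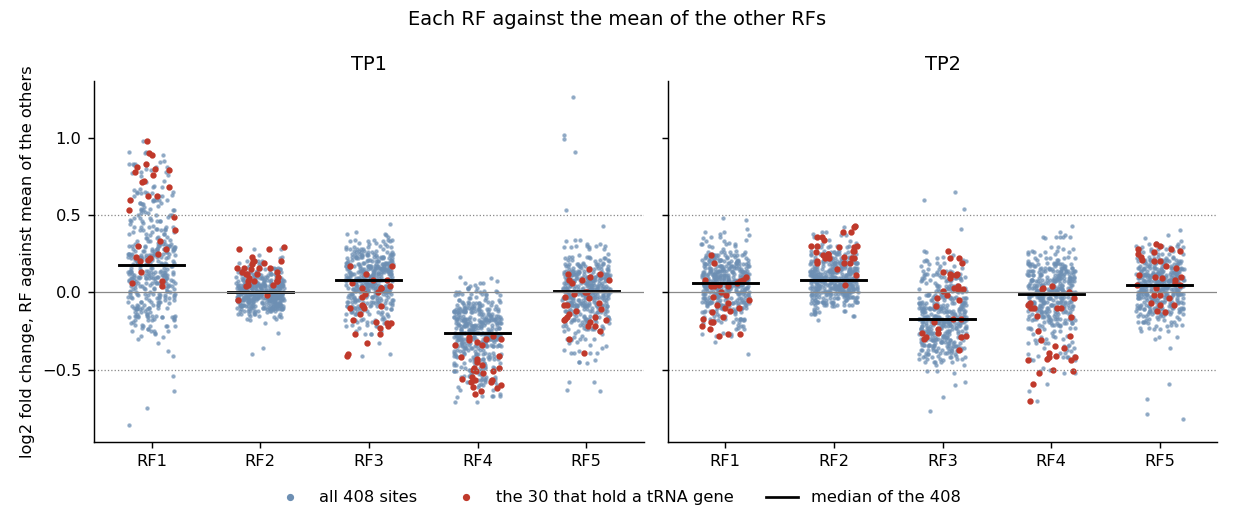
Difference of each RF from the mean of the other RFs (log2 fold change, y axis) at the 408 sites, at TP1 and TP2, each point a site, red points the 30 sites with tRNA genes, black bars medians and dotted lines 0.5 either way. Medians run from -0.26 (RF4, TP1) to 0.18 (RF1, TP1).

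The most accessible site, chr17:39843028-39848798 (5771 bp, 3898 CPM, 675 CPM per kb), lay over Rn18s-rs5, annotated as a sequence related to the small-subunit ribosomal RNA, and over the lncRNA gene AY036118, 101722 bp from Esp38. Ribosomal RNA genes exist in many copies, and the authors kept uniquely aligned reads. At TP2 its 5 RF3 libraries held 2630, 2519, 2618, 2653 and 2731 CPM. RF1 held 5281, 5772, 4488, 4656 and 3226, RF2 3872, 3712, 4382, 3899 and 3318, RF4 4225, 4663, 4401, 4622 and 4458, and RF5 3367, 3034, 3241, 3044 and 3382. Every RF3 library was below every library of the other RFs. RF1 exceeded RF3 by 0.91 ± 0.11 (log2 fold change ± SE, edgeR adjusted p = 7e-06), or 1.11 without the 3 libraries named above, whereas with the loess offset the difference was 0.14 (adjusted p = 0.45). At TP1 the groups overlapped, RF1 alone spanning 2466 to 4847 CPM, and the RF test gave an adjusted p of 0.053.

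A pair of other short and very accessible sites also read lowest in RF3 at TP2. At chr3:5860341-5860825 (485 bp, 145 CPM, 281745 bp from Pex2) RF3 held 111, 111, 110, 112 and 117 CPM, and no other library was below 130. At chr11:109011647-109012095 (449 bp, 83.8 CPM, near Axin2) RF3 held 64.4, 56.5, 60.2, 61.5 and 63.6 CPM, and no other was below 67. RF1 exceeded RF3 by 0.76 ± 0.08 (edgeR adjusted p = 2.2e-08) and 0.68 ± 0.07 (3.9e-09), by 0.91 and 0.82 without the 3 libraries, and with the loess offset by 0.34 at both (adjusted p = 0.015 and 0.0033). The shortest of all the sites, chr16:17222257-17222516 (260 bp, 29.8 CPM, 8275 bp from Rimbp3), followed the same pattern. Its RF3 libraries held 20.7, 22.2, 21.5, 22.4 and 20.2 CPM at TP2, RF1 46.5, 49.5, 32.9, 39.4 and 31.1, and RF4 37.7, 41.4, 36.8, 39.9 and 43. RF3 and RF1 did not overlap, and RF1 was higher by 1.00 ± 0.08 (edgeR adjusted p = 3.2e-13), by 1.17 without the 3 libraries and by 0.77 with the loess offset (5.3e-09). Single libraries of RF1 also ranked alike at these sites and over Rn18s-rs5. Replicate 1 was lowest of its group at TP1, with 103 (Pex2), 62 (Axin2), 20 (Rimbp3) and 2466 CPM (Rn18s-rs5). Replicate 2 was highest of its group at TP2, with 214, 112, 49.5 and 5772 CPM. Whether repeats lie under these sites was not analysed.

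At 4 sites the order of the RFs turned over between TPs, with RF5 highest at TP1 and lowest or near lowest at TP2. The clearest was chr14:19416955-19419407 (2453 bp, 26.1 CPM, 114293 bp from Gm2244). At TP1, RF5 held 56, 41.2, 48.8, 41.1 and 63.3 CPM, and RF1 16.2, 13.5, 13.4, 20 and 17. All other libraries were at most 27.6, so RF5 stood apart, and RF1 differed from RF5 by -1.61 ± 0.08 (edgeR adjusted p = 6.3e-22, -1.63 with the loess offset). At TP2, RF5 held 16.6, 14.7, 16.1, 16.1 and 17.3 CPM, RF3 36.8, 32.3, 32.6, 31.4 and 43.1, RF1 21.2, 21.8, 39.5, 26.4 and 14.7, and RF2 27.3, 27.5, 38.8, 28.8 and 14.1. Replicate 5 of RF1 and of RF2 read like RF5, and replicate 3 of both lay within the range of RF3. RF3 exceeded RF5 by 1.07 ± 0.20 (adjusted p = 0.0026), and by 1.06 without the 3 libraries. When libraries within sampling noise were summed the call was lost (adjusted p = 0.045), and with the loess offset too (1.24, adjusted p = 0.011).

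The farthest site, chr2:98666240-98667321 (1082 bp, 151 CPM, 1034568 bp from Lrrc4c, which encodes the netrin-G1 ligand of synapses), behaved alike. RF5 held 233, 172, 207, 184 and 249 CPM at TP1 and 125, 108, 115, 109 and 128 at TP2. RF3 held 128, 103, 104, 106 and 114 at TP1 and 235, 201, 225, 211 and 273 at TP2. RF1 differed from RF5 at TP1 by -1.16 ± 0.07 (edgeR adjusted p = 6.6e-18). At TP2 RF3 exceeded RF5 by 0.91 ± 0.20, which missed the threshold (adjusted p = 0.011) and passed it without the 3 libraries (0.90, adjusted p = 2.6e-05). RF1 spread from 106 to 307 CPM and RF2 from 113 to 275 at TP2, across the whole range of the other groups. The neighbouring site chr2:98662235-98662965 (56.1 CPM) showed -1.33 ± 0.08 (RF1 minus RF5, adjusted p = 1.8e-19) at TP1 and 1.14 ± 0.22 (RF3 minus RF5, 0.004) at TP2. That TP2 call was lost with the region mean taken out (0.69, adjusted p = 0.024) and with the loess offset (1.41, adjusted p = 0.011). With libraries within sampling noise summed this neighbour was no DAR at TP2. Whether repeats lie under these sites was not analysed here, and their part in the result was not tested.

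The last site of this kind, chr15:75085499-75087040 (1542 bp, 41 CPM, 21121 bp from Ly6c2, a surface protein of myeloid cells), gave the plainest picture of the libraries that stood apart. At TP1, RF5 held 75.3, 64.2, 66.8, 60.3 and 84.2 CPM, RF1 19.4, 24.8, 27, 27.6 and 24.2, and RF2 to RF4 lay between 29.2 and 48. RF1 differed from RF5 by -1.48 ± 0.08 (edgeR adjusted p = 1e-20). At TP2, RF5 held 25.9, 22.7, 23.3, 23.1 and 24.7 CPM. RF1 held 44, 47.4, 51.8, 42.5 and 24.5, and RF2 42.6, 43.6, 51.6, 47.8 and 22.7. Replicate 5 of RF1 and of RF2 thus had the level of RF5, and every other library of RF1 to RF4 was at or above 39.7. RF4 exceeded RF5 by 0.86 ± 0.16 (adjusted p = 0.0012), and the call was lost when libraries within sampling noise were summed (0.026).

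**Figure D4:**
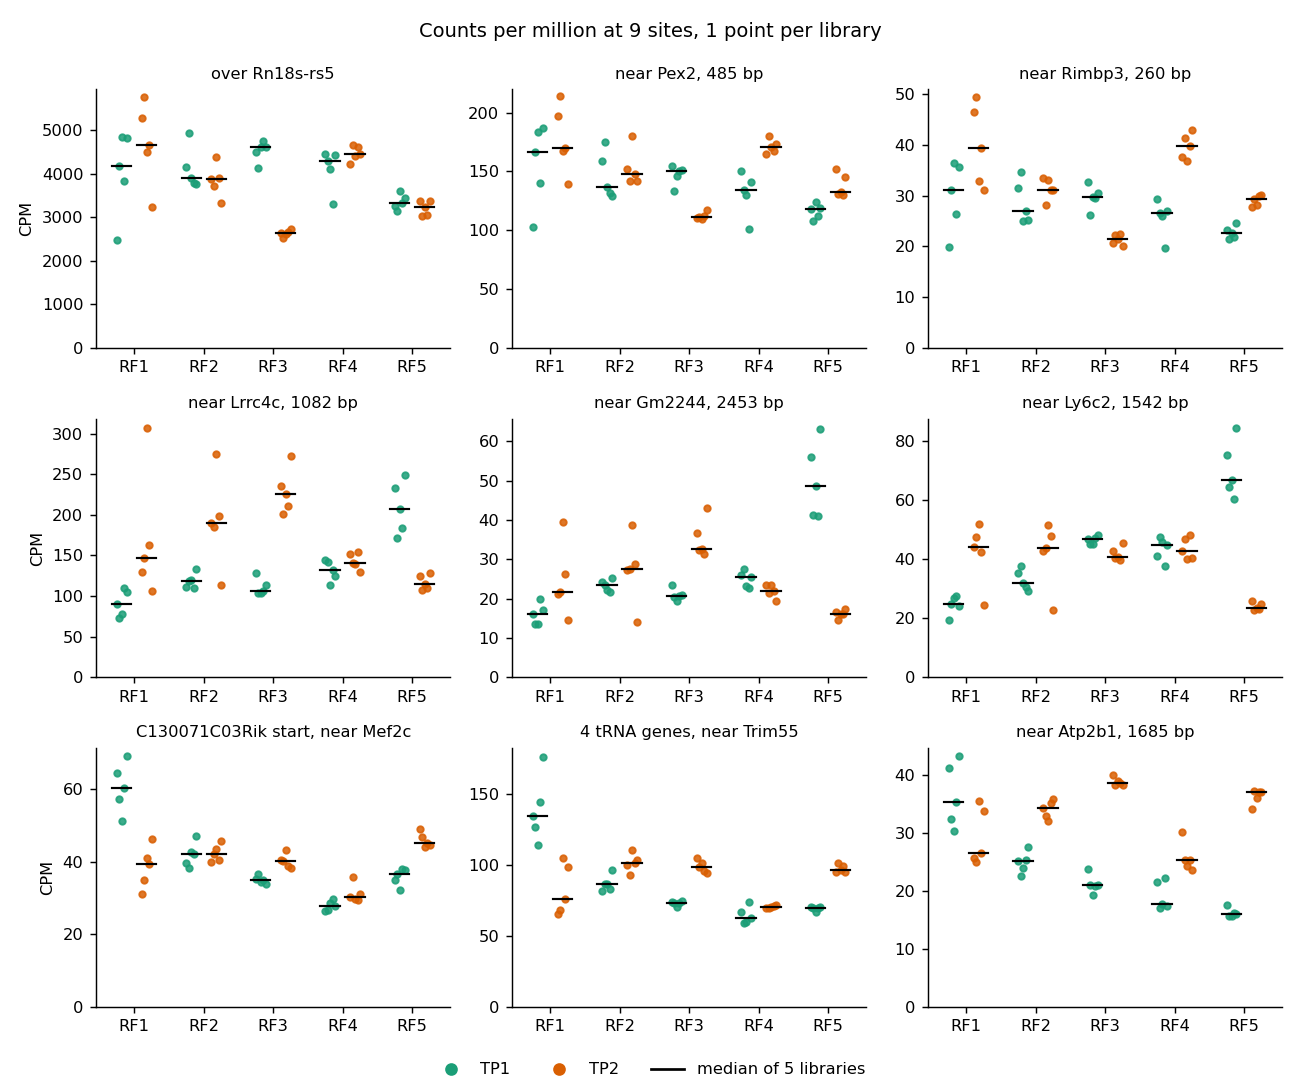
Accessibility (CPM, y axis) of 9 sites in each library by RF (x axis), green for TP1 and orange for TP2, each point a library and each black bar the median of 5. RF3 lies below the other RFs at TP2 at the sites over Rn18s-rs5 and near Pex2 and Rimbp3, and RF5 is highest at TP1 and low at TP2 at the sites near Lrrc4c, Gm2244 and Ly6c2.

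tRNA genes supply the amino acid adaptors of translation and lie in clusters, the largest of them beside the histone genes of chromosome 13. The 30 sites that hold tRNA genes, 6 of them on chromosome 13, counted 23 DARs (76.7%) at TP1 and 14 (46.7%) at TP2. Among all 408 sites the shares were 37.7% and 19.4%, and among all peaks 38.6% and 21%. With region means taken out 23 were again DARs at TP1, but only 16 of them were among the first 23. At TP2 that fit left 3, all among the 14. With the loess offset 16 were DARs at TP1, all among the 23, and 12 at TP2, 11 of them among the 14. With libraries within sampling noise summed, all 23 and 8 of the 14 remained. RF1 was higher than the other RFs at 16 of the 30 (9.0% of all peaks) and RF4 lower at 15 (1.88%) at TP1. At TP2, RF4 was lower at 5 of the 30 (1.32%). Their summed CPM at TP1 was 1359 ± 76.4 in RF1 (SD, n = 5), 1126 ± 28.5 in RF2 (n = 5), 978 ± 13.3 (n = 3) in RF3, 853 ± 29.5 in RF4 (n = 4) and 987 ± 17.4 in RF5 (n = 4). At TP2 it was 1041 ± 159 in RF1 (n = 5), 1219 ± 66.7 for RF2 (n = 3), 1102 ± 14.3 (n = 3) for RF3, 923 ± 22.3 for RF4 (n = 3) and 1143 ± 8.76 in RF5 (n = 4). RF4 was lowest at both TPs, and RF1, highest at TP1, spread from 906 to 1272 at TP2.

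The most accessible of them, chr3:19627866-19629440 (88.4 CPM, 14904 bp from Trim55), holds 4 tRNA genes, n-TAagc14, n-TRacg3, n-TYgta1 and n-TYgta2, the last pair for tyrosine. RF1 held 135, 127, 114, 145 and 176 CPM at TP1, RF2 81.9, 86.9, 86.4, 83.1 and 96.2, RF3 73.6, 73.4, 70.6, 73.4 and 74.5, RF4 66.6, 59.1, 60, 73.6 and 62.4, and RF5 70.4, 69.3, 66.6, 69.7 and 70. RF1 stood above all others and exceeded RF4 by 1.24 ± 0.06 (edgeR adjusted p = 3.6e-23, 0.67 with the loess offset). At TP2, RF4 held 69.3, 69.6, 70.6, 70.9 and 71.7 CPM, RF2 99.7, 92.6, 110, 101 and 103, and RF1 65, 68.3, 105, 76.1 and 98.8. Replicates 3 and 5 of RF1 read like RF2 while the other 3 RF1 libraries read like RF4. RF2 exceeded RF4 by 0.54 ± 0.07 at TP2 (adjusted p = 1.9e-06) and by 0.51 without the 3 libraries, but by 0.24 with the region mean taken out.

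The site on chromosome 13 at chr13:23516304-23520226 (32 CPM, 10818 bp from H4c8, with 5 tRNA genes) separated the RFs into 2 sets at TP2. RF2, RF3 and RF5 lay between 38.5 and 43.5 CPM, and RF4 held 22.5, 23.4, 20.5, 23.8 and 23.9. RF1 held 23.1, 20.5, 39.1, 24.9 and 39.3, again with replicates 3 and 5 apart. RF2 exceeded RF4 by 0.75 ± 0.07 at TP1 (edgeR adjusted p = 9e-12) and by 0.87 ± 0.10 at TP2 (1.1e-05), with 0.87 without the 3 libraries, 0.83 after the loess offset and 0.41 after the mean of each 1 Mb region was taken out at TP2. Summing libraries within sampling noise ended both TP2 calls (adjusted p = 0.026 near Trim55 and 0.017 here).

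RF2 against RF4 was the pair with the most sites called in the same direction at both TPs. RF2 was higher at 32 sites at TP1 (1.7% of all peaks) and at 19 at TP2 (0.72%), and 18 sites were in both sets, against 145 of 144445 peaks (0.1%). Of the 18, 12 hold tRNA genes. The other 6 are 3 sites at the Klrb1 cluster on chromosome 6, chr6:47747625-47748899, and the sites near Gpc5 and Mef2c described below. Among the 30 tRNA sites the fitted difference was above 0 at all 30 at each TP, with medians of 0.51 (0.21 to 0.75) and 0.41 (0.14 to 0.87), against 0.19 and 0.04 among the other 378. With the loess offset these medians were 0.23 and 0.37 for the tRNA sites and -0.05 and 0.00 for the others, so the direction of the others turned at TP1. The count of 18 depended on the fit: it was 15 without the 3 libraries, 4 with region means taken out, 2 with the loess offset and 1 with libraries within noise summed. RF1 over RF4, in contrast, was a DAR at 23 of the 30 at TP1 (11.4% of all peaks) and at none at TP2 in edgeR (without the 3 libraries too) or DESeq2 (0.229%), where 15 of the 30 were higher at an unadjusted p under 0.05.

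**Figure D5:**
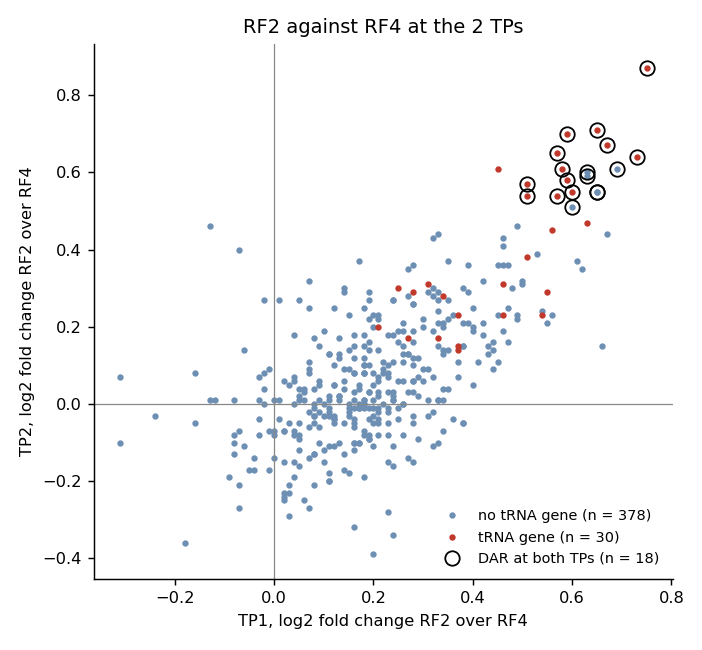
Difference of RF2 from RF4 (log2 fold change) at TP1 (x axis) and TP2 (y axis) at the 408 sites, red points the 30 sites with tRNA genes and circles the 18 sites that are DARs at both TPs. All 30 red points lie above 0 on both axes, and 12 of the 18 circles are red.

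The sites of miRNA genes were all RF-dependent at both TPs, 9 of 9 (59.1% and 30.8% of all peaks, 93.9% and 77.5% of the 408 sites), and 6 were DARs at TP1 (38.6% of all peaks) and 1 at TP2 (21%). With the loess offset 4 of the 6 remained DARs and the 1 did not, while 2 other sites were DARs at TP2. RF-dependence also moved with the fit. With libraries within sampling noise summed it held at 6 of the 9 at each TP. At TP2 it held at 6 with region means taken out and at 8 with the loess offset. At Mir760 (chr3:122292770-122295936, 59.9 CPM, which also holds the tRNA gene n-TRtct2) RF1 held 88.4, 84.7, 74.2, 79.5 and 92.6 CPM at TP1 and RF4 45.8, 43.1, 42.9, 48.7 and 43.2, with no overlap and a difference of 1.04 ± 0.06 (edgeR adjusted p = 2e-21). At Mirlet7i (chr10:122985237-122986888, 31.9 CPM) RF1 held 42.1, 46.2, 44.1, 42.8 and 45 and RF4 24.3, 23.7, 26.9, 26.2 and 24.6, a difference of 0.95 ± 0.06 (2.7e-20). Let-7b has the same seed, but Mirlet7b (chr15:85706937-85710848, 45.8 CPM) stayed within 36.5 to 54.3 CPM in all 50 libraries, and no pair of RFs reached 0.5. miR-9 is made from both Mir9-2 (chr13:83738421-83740378) and Mir9-1 (chr3:88213084-88217320), whose values are given side by side without a test between them. RF1 was the high group at Mir9-2 at TP1, with 42, 34.1, 32.2, 39 and 48.1 CPM against 21.3 to 22.8 in RF4 and a difference of 0.96 ± 0.07 (adjusted p = 1.8e-18), or 0.71 with the loess offset and 0.40 with the region mean taken out. At Mir9-1 RF4 was the low group at TP1, with 29.5, 29, 31.2, 27.8 and 29.9 CPM against 32.8 to 41 elsewhere, and RF3 at TP2, with 25.9, 30.3, 28.5, 31.8 and 28.4 against 32.9 to 41.6. RF3 exceeded RF4 there at TP1 by 0.57 ± 0.06 (1.3e-10), and RF2 exceeded RF3 at TP2 by 0.53 ± 0.06 (2.3e-09), or 0.57 without the 3 libraries, which made Mir9-1 the miRNA site that was a DAR at both TPs. Both calls as a DAR ended with the loess offset (0.25 and 0.32) and with the region mean taken out (0.43 and 0.34). Mir137 (chr3:118428626-118437272) and Mir124a-1 differed between RF1 and RF4 at TP1 by 0.67 ± 0.06 (5.8e-14) and 0.69 ± 0.06 (8.4e-15), and by 0.37 and 0.34 with the loess offset. The most accessible miRNA site, Mir124a-3 (chr2:180890854-180895156, 121 CPM), was a DAR at neither TP: its RF3 libraries at TP2 held 86.2, 95.4, 92.8, 103 and 93.6 CPM and RF1 was higher by 0.46 ± 0.05 (2.3e-11) and by 0.47 without the 3 libraries, but by 0.08 with the loess offset (0.22).

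Mef2c, a transcription factor of neuronal activity and synapse number, has 5 of the sites in the 33.2 kb at chr13:83713065-83746249, one of them that of Mir9-2. RF1 was higher than the other RFs at all 5 at TP1, by 0.65 to 0.85 on the log2 scale, and RF4 lower at 3. At the start of C130071C03Rik (chr13:83729416-83732946, 39.9 CPM) RF1 held 64.4, 57.2, 51.2, 60.4 and 69.1 CPM at TP1, RF4 26.4, 26.7, 28.6, 29.6 and 27.7, and all others between 32.2 and 47.2. RF1 exceeded RF4 by 1.25 ± 0.06 (edgeR adjusted p = 1.5e-23), by 0.88 with the loess offset and by 0.70 with the region mean taken out. At TP2, RF4 held 30.3, 35.7, 29.8, 29.5 and 31 CPM and RF5 49, 46.6, 43.9, 45 and 44.5, and RF4 differed from RF5 by -0.55 ± 0.07 (1.1e-08, -0.50 with the loess offset and -0.23 with the region mean taken out). Its other start, chr13:83720273-83723141, gave 1.23 ± 0.06 (6.1e-23) at TP1 and -0.56 ± 0.06 (8.7e-10) at TP2 for the same pairs, the latter again -0.23 with the region mean taken out. The site 49488 bp from Gpc5, which encodes a glypican (chr14:115040130-115042713, 26.8 CPM), had the largest difference of RF1 from RF4 at TP1 among the sites named by the rule, 1.27 ± 0.07 (3.1e-20). Its RF4 libraries stayed low at TP2, at 18.7, 16.1, 19.7, 17.2 and 17.1 CPM against 31.2, 30.8, 31.9, 33.4 and 30.1 in RF5, a difference of -0.83 ± 0.07 (6.8e-12, -0.37 with the region mean taken out).

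Klrb1 genes encode receptors of natural killer cells, and 5 sites lie among them in 79.8 kb at chr6:128759954-128839742. RF1 was higher at all 5 (0.57 to 0.82) and RF4 lower at all 5 (-0.51 to -0.68) at TP1. At the start of the lncRNA gene Gm34755 (chr6:128798574-128800016, 36.8 CPM) RF1 held 53.2, 50, 46.4, 49.3 and 61.9 CPM and RF4 27.5, 24.4, 21.5, 26.2 and 24.6, with 28.1 to 41.7 in the other RFs. At TP2, RF1 held 25.7, 25.7, 40.5, 27.5 and 44.3 CPM, replicates 3 and 5 standing apart as they did at the tRNA sites. The longest run, 7 sites near Pcdh1 and Arap3 on chromosome 18, held no DAR at either TP, nor did the 6 sites near Klf14, although 6 of the 7 and all 6 depended on RF at TP1.

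Known non-coding RNA genes, 13 of a list of 68, overlapped 20 of the sites, of which 20 were RF-dependent at TP1, 19 at TP2, and 7 (35%) and 4 (20%) were DARs, close to the 38.6% and 21% of all peaks. With the loess offset 1 of the 7 and none of the 4 remained DARs, and 16 sites were RF-dependent at TP1 and 12 at TP2. At TP2, 11 were RF-dependent with region means taken out and 10 with libraries within sampling noise summed. Malat1, an abundant nuclear RNA, has a site at its start (chr19:5802104-5805003, 55.8 CPM). RF4 held 46, 46.3, 45.7, 40.4 and 46.4 CPM there at TP1, below all others, and RF3 exceeded RF4 by 0.64 ± 0.07 (edgeR adjusted p = 2.5e-10), or 0.22 with the loess offset (0.0019). At TP2, RF3 held 41.3, 43.5, 43.5, 49.1 and 44.6 CPM and RF2 72.4, 65.6, 65.9, 69.1 and 48.4, a difference of 0.60 ± 0.07 (1e-08) and of 0.69 without the 3 libraries, which was 0.34 with the loess offset and 0.23 with the region mean taken out. The start of Lncpint (chr6:31215804-31218886, 64 CPM), a p53-regulated lncRNA, held 73.3, 89.1, 83.7, 79.1 and 79 CPM in RF1 and 49.6, 49.3, 54.4, 50 and 52.5 in RF4 at TP1, a difference of 0.80 ± 0.06 (5.3e-18, 0.29 with the loess offset). At Meg3, which carries a cAMP response element in the promoter above, the same pair differed by 0.44 ± 0.06 (7.5e-09), short of a DAR and -0.00 with the loess offset. Dleu2 (0.64 ± 0.06, adjusted p = 2e-14) and Ftx (0.73 ± 0.06, adjusted p = 1.5e-15), a lncRNA of the X-inactivation centre, differed between RF1 and RF4 in the same direction, with 0.23 and 0.48 under the loess offset. Miat was the start with a DAR at TP2 and not at TP1 (RF1 minus RF3, 0.52 ± 0.06, adjusted p = 3.5e-10, 0.54 without the 3 libraries), but its difference was 0.27 with the loess offset and 0.16 with the region mean taken out (adjusted p = 0.11). Snhg11, Mir9-3hg, Oip5os1 and Tunar were DARs at neither TP.

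Sites whose nearest protein-coding gene is a forebrain transcription factor, 8 sites at 4 genes of a list of 75, were DARs at TP1 in 7 cases (38.6% of all peaks) and at TP2 in 3 (21%). With region means taken out 4 of the 7 and none of the 3 remained DARs. Beside the 5 at Mef2c they include one 5550 bp from Nfib (chr4:82512301-82514220), where RF1 held 42.5, 45.8, 41.2, 43.1 and 49.3 CPM and RF4 23.4, 25.7, 25.2, 26.8 and 24.2 at TP1, a difference of 0.96 ± 0.06 (edgeR adjusted p = 2.7e-19). Activity-regulated genes (Btg2, Fos, Fosb, Gadd45b, Ier5, Klf10 and Nr4a1, 7 of a list of 46) had 8 sites, all RF-dependent at both TPs (59.1% and 30.8% of all peaks, 93.9% and 77.5% of the 408 sites) and 2 of them DARs at each (25%, against 38.6% and 21% of all peaks). Of the 2 at TP2 neither remained a DAR with the loess offset or with region means taken out. At TP1, 5 sites were DARs with region means taken out, the 2 among them. With the loess offset 4 of the 8 sites were RF-dependent at each TP. With libraries within sampling noise summed, 5 were at TP1 and 7 at TP2. The site 6606 bp from Nr4a1 (chr15:101245906-101247296) was a DAR at TP1, with 28.5, 31, 31.1, 29.8 and 29 CPM in RF4 and 0.58 ± 0.06 between RF1 and RF4 (1.6e-11, 0.22 with the loess offset). The site 8758 bp from Fosb (chr7:19318876-19320900) differed in RF3 at TP2 from the other RFs by -0.51 ± 0.06 (1.1e-10, -0.52 without the 3 libraries), and by -0.36 with the loess offset and -0.05 with the region mean taken out (0.68). The pair of sites near Fos were not DARs, with differences of 0.45 ± 0.05 (RF3 over RF4, 5.7e-09) and 0.35 ± 0.06 (RF1 over RF4, 1.6e-06) at TP1 that fell to 0.07 and turned to -0.03 with the loess offset. Among clock genes, the site near Nr1d1 (chr11:98781676-98784021) was a DAR at TP2 (RF1 over RF3, 0.54 ± 0.07, adjusted p = 1.2e-09, 0.61 without the 3 libraries), a call that ended with the loess offset (0.31) and with the region mean taken out (0.11, adjusted p = 0.32), and that near Hlf (chr11:90416755-90418714) at TP1 (RF1 over RF4, 0.86 ± 0.06, adjusted p = 6.3e-19). Synaptic adhesion genes had 4 sites, with 3 DARs at TP1 (75%, against 38.6% of all peaks) and 1 at TP2 (25%, against 21%). Those at TP1 were 1 near Nlgn3 and the neighbouring pair 1030563 and 1034568 bp from Lrrc4c. The site near Nlgn3 differed by 0.63 ± 0.06 (1.8e-13), by 0.31 with the loess offset and by 0.32 with the region mean taken out. The DAR at TP2, chr2:98662235-98662965, was lost with region means taken out and with libraries within sampling noise summed. Ion channel and receptor genes had 4 sites with 1 DAR at TP1 (25%, against 38.6% of all peaks) and none at TP2 (against 21%). The 1 DAR, near Kcnj6, differed by 0.57 ± 0.06 (2e-12), and by 0.18 with the loess offset. The glial list had 1 site, near Sox8, a DAR at TP2 (RF1 over RF3, 0.56 ± 0.08, 1.1e-07, 0.74 without the 3 libraries), a call that ended with the loess offset (0.31) and with the region mean taken out (0.10, 0.37).

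The lowest interaction p, for a change of RF differences between TPs, was at chr10:98485353-98487037 (28.2 CPM, 427593 bp from Atp2b1, a calcium pump gene; edgeR interaction adjusted p = 3.5e-21). RF1 held 41.2, 32.3, 30.3, 35.2 and 43.2 CPM at TP1, and RF5 17.6, 15.6, 15.6, 16.2 and 16. At TP2, RF5 held 34.1, 37.3, 36, 37 and 37 CPM, RF3 40, 38.2, 38.8, 38.6 and 38.2, and RF4 30.1, 25.2, 24.2, 25.3 and 23.5. RF5 thus went from the lowest median to one of the highest. RF1 exceeded RF5 by 1.19 ± 0.07 at TP1 (6.4e-21), and RF3 exceeded RF4 by 0.54 ± 0.07 at TP2 (6e-09), though by 0.14 with the region mean taken out (0.25). The site 93902 bp from Pam (chr1:98189755-98192865, interaction 5.3e-20) moved likewise, with RF1 over RF5 by 1.15 ± 0.07 at TP1 (2.3e-18) and RF3 over RF4 by 0.43 ± 0.06 at TP2 (1.8e-07), which was -0.02 with the region mean taken out. On the Y chromosome, the widest site (chrY:90797220-90813012, 15793 bp, 82.8 CPM) held 116, 115, 113, 117 and 111 CPM in RF3 at TP2 against 60.5, 59.5, 88.2, 57.9 and 82 in RF1, a difference of -0.65 ± 0.08 (RF1 minus RF3, 1.5e-07), or -0.89 without the 3 libraries.

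Between TPs as a whole, 2 sites were lower at TP2 (0.995% of all peaks) and none was higher (1.8%) by the edgeR joint fit, and with the loess offset 6 were higher and none lower. At an unadjusted p under 0.05, whatever the fold, 84 sites were higher, and DESeq2 called none of them. The 2 were chosen here after their values were seen. The site 11184 bp from Cbx8, a Polycomb protein (chr11:119052097-119055052), spanned 22.6 to 41.8 CPM at TP1 and 19.4 to 31.5 at TP2, a change of -0.54 ± 0.03 (adjusted p = 3.6e-22). The site 8167 bp from Bbc3, which encodes the cell-death protein Puma (chr7:16299383-16300231), spanned 18.8 to 34.1 and 14.1 to 24.8 CPM, a change of -0.52 ± 0.03 (1.3e-23). Both overlapped between TPs.

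Some sites had no RF call with all libraries. At chr1:75585405-75590004 (4600 bp, 23.9 CPM, 25974 bp from Slc4a3, an anion exchanger gene) the 50 libraries lay between 18.8 and 26.7 CPM, and the RF test gave adjusted p = 0.77 at TP1 and 0.3 at TP2 (edgeR) and the interaction 0.24. Without the 3 libraries, however, RF1 minus RF2 at TP2 went from -0.13 to -0.25 and was called (adjusted p = 0.0035). The site near Pdia6 had adjusted p = 0.24 at TP1 and 0.031 at TP2, and without the 3 libraries RF3 minus RF4 was called there too (-0.20, adjusted p = 0.00096). Other sites had a high p at 1 TP alone. The site near Gm14279 had an adjusted p of 0.19 at TP1 and 0.0024 at TP2 (RF3 minus RF4, -0.31). Those near Kcng3, Kif13b and Ska1 had adjusted p = 0.94, 0.93 and 0.78 at TP2, and 6.2e-05, 1.4e-05 and 3.2e-08 at TP1, with RF1 minus RF5 at 0.27 and -0.33 at the first pair and RF1 minus RF4 at 0.42 near Ska1.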

How the data were processed

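ATAC-seq was made from 50 libraries, 5 per RF and TP, in 5 sorting batches per TP with 1 sample of each RF. According to the methods, the authors trimmed reads with fastp, aligned them to GRCm38 (Ensembl) with Bowtie2, kept concordant unique pairs, marked duplicates (Picard), called broad peaks per library with MACS2 2.1.4, kept peaks found in at least 3 libraries of a group, joined them across groups (multovl) and counted reads with featureCounts. The deposited table holds raw counts per peak. The second deposited table was identical to it and was not used. The deposited score of a merged peak is the number of groups it was found in, and the deposited peak files give a score, a fold enrichment (a linear ratio) and −log10 p and q values, of which called peaks per library and fold enrichment were used as descriptions.

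Counts were fitted with edgeR 4.0.16 (R 4.3.3, TMM, filterByExpr, robust quasi-likelihood F-tests) over all peaks, per TP with RF and replicate number, and jointly with 10 groups and replicate number within TP. P-values were adjusted by Benjamini-Hochberg over all tested peaks, with 0.01 as threshold, and a DAR also had to differ by 0.5 or more on the log2 scale. The SEs were worked back from the tests, as the absolute log2 fold change divided by the square root of F. The replicate number was taken as the sorting batch, which the labels do not state. Same-numbered libraries correlated by 0.0609 at TP1 and 0.0012 at TP2 on average after group means were removed, so the numbers are not shown to pair samples. Labels do not tie TP1 to TP2 mice, although the methods describe cage mates, and no pairing was used there. Libraries of 1 group that were joined as within sampling noise were averaged as 1 sample in means and SDs. All libraries entered the fits, so p-values measure the spread between libraries. On simulated counts for 20000 peaks at TP1, 84 of 100 peaks changed by 0.5 and 100 of 100 changed by 1 (log2) were recovered, at TP2 72 and 97, and in the joint fit 33 and 95. These counts had a fixed dispersion, no batch effect, no shift shared by accessible peaks and no exchanged libraries. Only the RF or interaction test was scored, without the 0.5 cut of a DAR. Recovery under such differences was not tested.

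Distances, gene overlaps, starts, promoters and miRNAs came from RefSeq tables of GRCm38.p6, and no genome sequence was used. Sites named in the text were the 8 of highest CPM, at each TP the 5 with the largest RF difference and the 3 with the highest RF p, the 4 lowest interaction p, up to 10 starts of listed non-coding RNA genes, the sites at the thresholds and up to 3 of each other gene list. Other sites named (at miRNA and tRNA genes, in runs, near Cbx8, Bbc3 and Fosb) were chosen after their values were seen. The sites, the gene lists and these rules were chosen with earlier results of these data known. Alternatives were RLE size factors, no filter, DESeq2 1.42.0, no replicate number, subtraction of 1 Mb region means, a loess offset on abundance, libraries within noise summed, 3 doubted TP2 libraries left out, each replicate left out, ranking by CPM per kb and a distance of 50 kb. Intervals and tests cover counting error and the spread between libraries only.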

Additional observations from a re-analysis of the deposited data

Results flagged for a closer look

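At the 29 sites named by level, RF difference, interaction or non-coding start, 290 groups of 5 libraries were checked for 1 library far from the other 4. The check found 15, close to the share of about 1 in 20 that chance alone gives. A library in this list is therefore not shown to be aberrant. RF2 replicate 5 at TP2 was found at 2 sites and 13 other libraries at 1 site each. At the tRNA site near Trim55, RF5 replicate 3 held 66.6 CPM at TP1 (others 69.3 to 70.4). Near Lrrc4c (chr2:98666240-98667321), RF1 replicate 3 held 307 CPM at TP2 (others 106 to 163). Near Pex2, RF2 replicate 3 held 180 CPM at TP2 (142 to 152), and near Axin2, RF2 replicate 2 held 111 at TP1 (82.9 to 90.5). At the starts of C130071C03Rik, RF4 replicate 2 held 35.7 CPM (29.5 to 31) and RF2 replicate 5 held 48 (38.9 to 39.9), both at TP2. Near Atp2b1, RF4 replicate 1 held 30.1 CPM at TP2 (23.5 to 25.3), and near Pam, RF5 replicate 4 held 16.7 at TP1 (17.6 to 17.9). At Malat1, RF4 replicate 4 held 40.4 CPM at TP1 (45.7 to 46.4) and RF2 replicate 5 held 48.4 at TP2 (65.6 to 72.4). At Meg3, RF3 replicate 3 held 36.7 CPM at TP2 (42.3 to 44.3). At Dleu2, RF3 replicate 5 held 51.8 at TP1 (47.3 to 48.5), and at Miat, RF4 replicate 3 held 41.8 at TP1 (36.6 to 38). At Mir9-3hg, RF3 replicate 5 held 35.8 at TP2 (28.9 to 30.6), and at Tunar, RF3 replicate 3 held 28.3 at TP1 (24.6 to 25.6).

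The RF by TP interaction, a test of whether RF differences changed between TPs, passed at 389 of 408 sites (95.3%) in edgeR's joint fit. It passed at 54.4% of all peaks and at 96.8% of the equally accessible peaks in or near genes. Its lowest adjusted p-values among the sites were 3.5e-21 near Atp2b1, 5.3e-20 near Pam, 8.2e-19 at the C130071C03Rik start chr13:83720273-83723141 and 2.5e-18 at chr7:38084547-38086322, 11662 bp from Ccne1. TP2 was amplified and sequenced apart from TP1, so a change with age, move or batch cannot be told apart.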

How the results depend on the processing

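RLE size factors and no filter on low counts moved none of the counts of sites by more than 1.5 times, and DESeq2 moved 1, RF3-higher sites at TP2 (3 in place of 1). Without the replicate number as a block, 373 sites depended on RF at TP1, 314 at TP2 and 381 had an interaction, and the block moved only RF5-lower sites at TP2 (1 in place of 2). Taking out the mean of each 1 Mb region left 184 sites (45.1%) RF-dependent and 13 DARs at TP2. RF1-higher, RF4-lower and RF5-lower sites at TP1 became 31, 27 and 2. At TP2, RF1-higher sites became 1, RF3-higher 0, RF3-lower 3, RF4-higher 1 and RF4-lower 0, and none was lower at TP2 than at TP1. The loess offset gave 86 DARs at TP1, of which 80 are among the 154, and 50 at TP2, of which 34 are among the 79. Under it RF1-higher and RF1-lower sites at TP1 were 41 and 7, RF4-higher and RF4-lower 2 and 0, and RF5-lower 9. At TP2, RF1-lower sites were 1, RF3-higher 4 and RF3-lower 1, and 6 sites were higher and 0 lower at TP2 than at TP1. Summing libraries within sampling noise left 199 RF-dependent sites (48.8%) at TP2, with 0 RF3-higher and 0 RF5-lower sites. This fit has fewer samples and no replicate number. Without RF1 replicates 3 and 5 and RF2 replicate 5 at TP2, 382 sites depended on RF at TP2, with 9 RF1-higher, 5 RF1-lower, 3 RF2-higher, 3 RF3-higher, 3 RF4-lower and 4 RF5-lower sites, and 1 site was lower at TP2 than at TP1. Those libraries were picked from the same counts, so added calls without them are no independent support.

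Leaving out each replicate number in turn gave 348 to 377 RF-dependent sites at TP1 (85.3 to 92.4%), 238 to 349 at TP2 (58.3 to 85.5%), 147 to 158 and 70 to 99 DARs, and 354 to 390 interactions. RF1-higher sites at TP1 ran from 60 to 71, RF1-lower from 3 to 4 and RF4-lower from 39 to 54. At TP2, RF1-higher sites ran from 0 to 6, RF1-lower from 0 to 1, RF2-higher from 0 to 2, RF3-higher from 0 to 3, RF3-lower from 5 to 9, RF4-lower from 3 to 8 and RF5-lower from 0 to 4, and sites lower at TP2 than at TP1 from 0 to 3.

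Of the values for single named sites, 1025 kept direction and call, 90 lost the call, 26 gained it and 9 turned sign. With region means taken out, near Pex2 RF1 minus RF5 became -0.13 at TP1, on the Y chromosome RF2 minus RF5 0.05 at TP1, near Pam RF3 minus RF4 -0.02 at TP2, and near Gm14279 RF1 minus RF3 0.24 at TP1 and RF3 minus RF4 0.01 at TP2. With the loess offset, at Mir124a-3 RF3 minus RF4 became -0.25 at TP1, near Ptpdc1 RF3 minus RF5 0.05 at TP2, at Meg3 RF1 minus RF4 -0.00 at TP1 and at the other Fos site RF1 minus RF4 -0.03 at TP1. The cause was not tested. TP2 libraries were shallower, with 5111223 to 36401717 reads in peaks, and the sites near the CPM threshold had the fewest reads.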
